A study of Mus musculus with 6 samples.

Results

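The genes described here are Ptprc, which encodes the leukocyte surface phosphatase CD45, and 6 genes whose products act on the inclusion of its variable exons: Hnrnpl, Hnrnpll, Ptbp1, Sfpq, Thrap3 and Gsk3b. They were listed by name and not by a cutoff on measured values, but earlier results of these data were known when they were chosen. They make up 7 of the 47729 genes in the count table. All 7 passed the filter on low counts. RNA was sequenced from CD4 T cells of mouse spleen, 6 samples in 3 groups of 2. The WT samples were mature naive cells of wild type mice (CD3+CD4+CD25-CD45RBhi by flow cytometry). The ON (Notch responsive) and OFF (Notch unresponsive) samples were immature naive cells of RBPJind mice, taken through the same gate except for an intermediate level of CD45RB (CD3+CD4+CD25-CD45RBint). In RBPJind mice doxycycline (Dox) induces RBPJ, the transcription factor at the end of the Notch pathway. ON mice drank Dox for 4 weeks, and OFF mice drank it for 3 weeks and then went 1 week without it while their cells matured in the periphery. Every sample carries the treatment label Dox, with no duration for WT. Nothing in the sources used here gives the strain, age or sex of the mice, the promoter behind the induction, or whether animals were pooled.

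CD45 removes inhibitory phosphates from Src family kinases such as Lck and so sets the threshold of T cell receptor signalling. Its outer domain changes in length because exons 4, 5 and 6, known as A, B and C, are each kept or skipped. Naive T cells keep more of these exons than memory and effector cells. Antibodies to CD45RB bind the protein part encoded by exon B, so the staining behind the sort gates of this study depends on a splicing outcome. The gates graded cells by surface staining and did not measure exon inclusion. Hnrnpl and Hnrnpll encode paralogous RNA-binding proteins that silence these exons, and hnRNP LL is known for the shift to short forms in activated and memory T cells. PTB (Ptbp1) and PSF (Sfpq) also bind the variable exons and favour skipping. In resting T cells the kinase GSK3 phosphorylates PSF, which is then held by TRAP150 (Thrap3) away from CD45 RNA.

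The exons are shown because the regulators act on them and because exon B encodes the protein part stained for the gate. The sequences are from GENCODE release M21 transcripts on GRCm38, minus strand of chromosome 1, written 5′ to 3′ as they occur in transcript Ptprc-207. Capitals mark each ACAC, a short form of the CA-rich elements that hnRNP L binds.
Exon A (exon 4, chr1:138122456-138122584): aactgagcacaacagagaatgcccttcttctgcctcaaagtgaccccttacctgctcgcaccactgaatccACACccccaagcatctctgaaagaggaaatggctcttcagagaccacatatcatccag
Exon B (exon 5, chr1:138120020-138120166): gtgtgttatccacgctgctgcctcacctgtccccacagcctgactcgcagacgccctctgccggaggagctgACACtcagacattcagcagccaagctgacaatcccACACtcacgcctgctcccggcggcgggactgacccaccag
Exon C (exon 6, chr1:138117754-138117894): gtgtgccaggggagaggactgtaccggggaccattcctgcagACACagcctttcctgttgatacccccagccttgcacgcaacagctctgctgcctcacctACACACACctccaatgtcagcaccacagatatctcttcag

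Exons A, B and C are 129, 147 and 141 bases long, each a multiple of 3, so that skipping any of them keeps the reading frame. On the RNA strand, with overlapping matches counted, ACAC occurs 1 time in exon A, 2 times in exon B and 4 times in exon C. Of 36172 distinct internal exons of protein-coding transcripts between 120 and 150 bases long, 37.4% hold at least 1 ACAC, 9.92% at least 2 and 0.464% at least 4. TCTT, a pyrimidine-rich word of the kind PTB binds, occurs 2 times in exon A, 0 times in exon B and 1 time in exon C. Of the same background exons, 41.2% hold at least 1 TCTT and 11.8% at least 2. These matches describe letters and are no evidence of binding. Of the annotated transcripts drawn by exon, Ptprc-207 holds A, B and C, Ptprc-213 holds B alone of these, and Ptprc-203 and Ptprc-204 hold none of them. Ptprc-213 is annotated with only 8 exons and 702 bases, beside 33 exons and 5074 bases in Ptprc-207. Ptprc-204 also lacks exon 7.

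**Figure D1:**
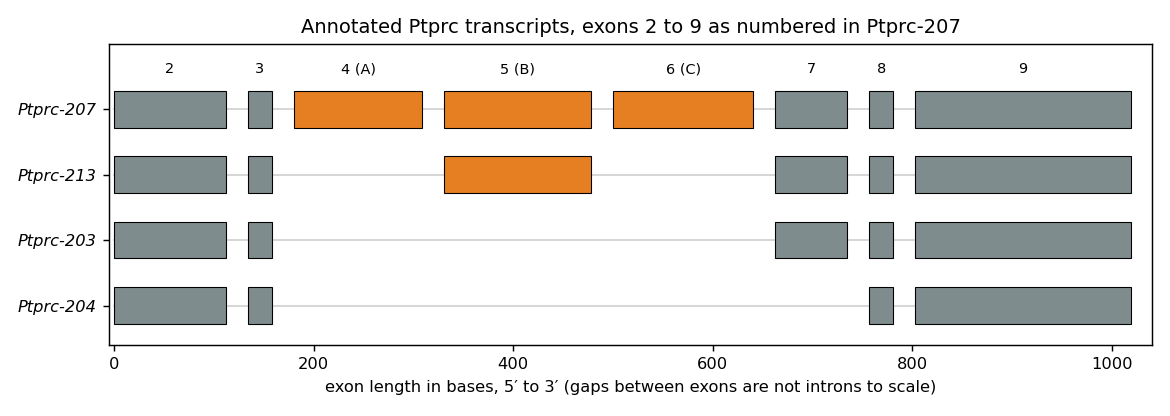
Exons 2 to 9 of 4 annotated Ptprc transcripts, numbered as in Ptprc-207, with exon length in bases on the horizontal axis and 1 transcript per row. Orange boxes are the variable exons A, B and C (129, 147 and 141 bases) and grey boxes the other exons; only Ptprc-207 among these 4 holds all 3 variable exons.

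The deposited table counts reads per gene, so all forms of CD45 RNA were added together. Exon B makes up 2.90% of the 5074 bases of Ptprc-207, and A, B and C together make up 8.22%. The form with A, B and C is longer than the same transcript without them by 0.12 on the log2 scale. Exon inclusion itself was therefore not measured, and the results below concern the amount of CD45 RNA and of the regulators' RNA.

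Counts assigned to genes ranged from 17025551 to 19319183 per library. Reads without an alignment made up 9.34% and 14.8% in ON against 18.8% to 24.3% in the other 4 libraries, and their part in any result was not tested. Values are CPM (reads of a gene relative to all reads assigned to genes in its library), scaled by the trimmed mean of M values (TMM), and errors are the SD of 2 samples. Rbpj, the induced gene, stood at 98.2 and 79.6 CPM in ON, 29.8 and 31.7 in OFF, and 36.1 and 35.3 in WT, and was called lower in OFF than in ON (edgeR adjusted p = 0.00195). Separate mice are not named for the 2 samples of a group, so the p-values rest on the spread between samples that may be technical repeats. WT differed from ON and OFF in genotype and sort gate at once, and these cannot be told apart. OFF differed from ON in the last week of Dox, and Dox and RBPJ cannot be told apart there.

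The 6 genes other than Gsk3b had 95% intervals that included no change in each comparison, and Gsk3b was 1.51-fold higher in OFF than in ON without passing the adjusted test. By edgeR's quasi-likelihood test with Benjamini-Hochberg adjustment over all genes, 0 of the 7 genes were called at an adjusted p under 0.05 between OFF and ON, where 1.03% of all 15780 tested genes were called (0.602% higher and 0.425% lower), so that a count of 0 is also what the background share would give. Between ON and WT the count was also 0 of 7, where 14.8% of all genes were called (9.68% higher and 5.16% lower). Between OFF and WT it was 0 of 7, where 6.83% were called (4.7% higher and 2.14% lower). At an unadjusted p under 0.05 the counts were 1, 1 and 0. DESeq2 called 1, 0 and 0, and limma-voom 0, 0 and 0. The single gene behind each count of 1 was Gsk3b. In these bulk samples fewer cells of a type and less RNA per cell cannot be told apart. The median log2 fold change of the 7 genes was 0.087 for OFF against ON, 0.050 for ON against WT and 0.14 for OFF against WT, beside 0.00109, -0.020 and 0.011 over all tested genes.

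**Figure D2:**
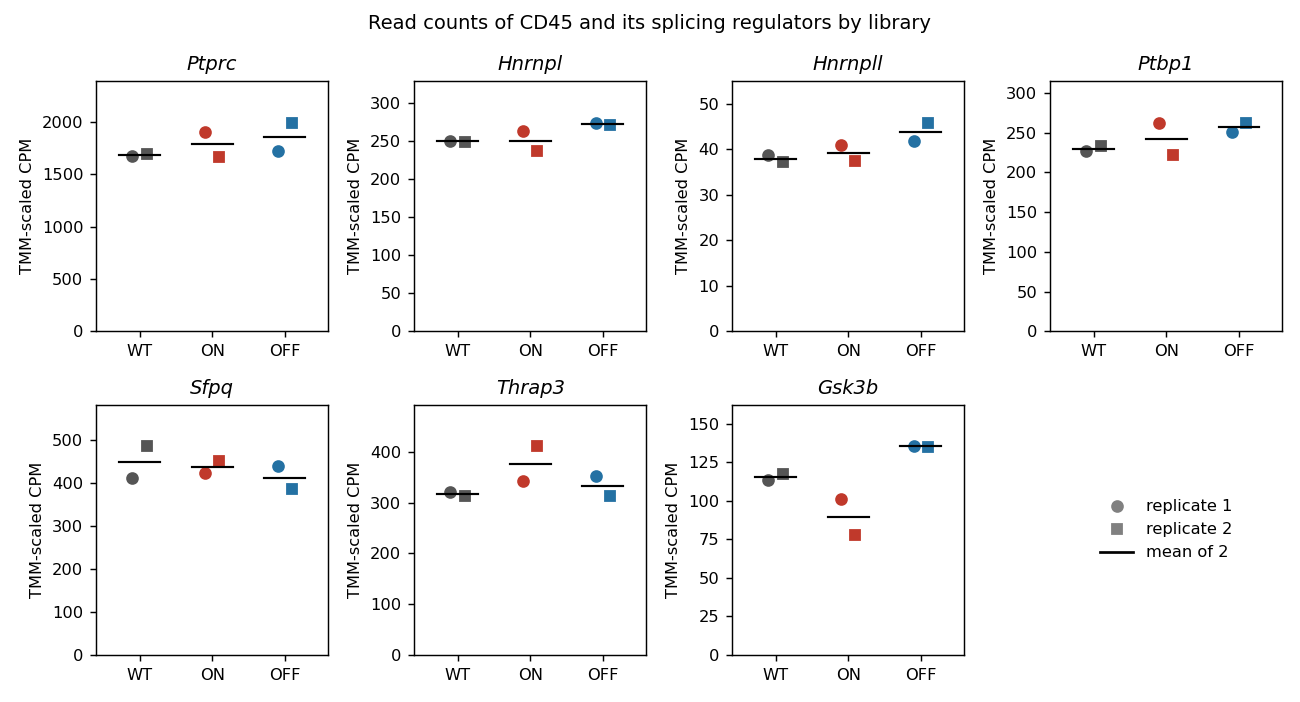
TMM-scaled CPM (vertical axes, from 0) of the 7 genes in each library of WT, ON and OFF; circles are replicate 1, squares replicate 2 and lines the mean of 2. Gsk3b is the gene whose 3 groups do not overlap, from 78.1 CPM in the lowest ON library to 135.4 in the highest OFF library, while Ptprc stays between 1669.8 and 1995 CPM.

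Ptprc (ENSMUSG00000026395; GRCm38 chromosome 1, 138062861 to 138175708) was the most abundant of the 7 and ranked 22 among all tested genes by mean CPM. It was counted at 1677 and 1698 CPM in WT, at 1908 and 1669.8 CPM in ON, and at 1727 and 1995 CPM in OFF. WT and ON overlapped, ON and OFF overlapped, and both OFF values lay above both WT values. The group means were 1687 ± 14.98, 1789 ± 169 and 1861 ± 189.9 CPM (SD, n = 2). The log2 fold change of OFF against ON was 0.057 ± 0.13 (SE; edgeR adjusted p = 0.851), with a 95% interval from 0.848-fold to 1.28-fold. ON against WT gave 0.085 ± 0.13 (edgeR adjusted p = 0.711; interval 0.865-fold to 1.30-fold) and OFF against WT 0.14 ± 0.13 (edgeR adjusted p = 0.598; interval 0.899-fold to 1.35-fold). Cells gated as CD45RBhi and as CD45RBint thus carried total CD45 RNA that differed by less than the test could call, within these intervals. At 28031 or more reads per library, counting error was at most 0.597% of the value, far below the spread between the samples of ON and OFF. The direction of OFF against ON turned without ON 2 (-0.047) or without OFF 2 (-0.071).

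A130071D04Rik, an unclassified transcript (type TEC) inside an intron of Ptprc and on its strand, was counted at 130.1 and 183 CPM in the WT libraries, 123 and 153 in the ON libraries, and 164 and 124 in the OFF libraries. The 3 groups overlapped, and it was not called in any comparison (edgeR adjusted p from 0.580 to 0.904).

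Of the silencers that bind the variable exons directly, Hnrnpl (ENSMUSG00000015165; chromosome 7, 28808541 to 28822266) stood at 250.4 and 249 CPM in the WT libraries, 263 and 237 in the ON libraries, and 274 and 271 in the OFF libraries. The ON values lay on either side of WT, and both OFF values lay above the other 4 libraries by a small margin. Its log2 fold change was 0.12 ± 0.11 for OFF against ON (edgeR adjusted p = 0.590), 0.00158 ± 0.11 for ON against WT (edgeR adjusted p = 0.995) and 0.13 ± 0.11 for OFF against WT (edgeR adjusted p = 0.587). The sign of its difference between ON and WT turned under both other scalings, which moved it to -0.00588 (RLE) and -0.071 (upper quartile).

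Hnrnpll (ENSMUSG00000024095; chromosome 17, 80029487 to 80062334), the paralog tied to exon skipping in memory T cells, was the least abundant of the 7, with 639 to 803 reads per library and a counting error of up to 3.96%. It stood at 38.7 and 37.2 CPM in the WT libraries, 41.0 and 37.5 in the ON libraries, and 41.8 and 45.9 in the OFF libraries. WT and ON overlapped, and both OFF libraries lay above them. The log2 fold change was 0.16 ± 0.13 for OFF against ON (edgeR adjusted p = 0.528), 0.050 ± 0.13 for ON against WT (edgeR adjusted p = 0.830; -0.023 with upper quartile scaling) and 0.21 ± 0.13 for OFF against WT (edgeR adjusted p = 0.385). The upper ends of the 95% intervals were 1.36-fold, 1.26-fold and 1.41-fold. Per base of the longest coding transcript, Hnrnpll stood at 0.133 and 0.128 of Hnrnpl in the WT libraries, 0.134 and 0.136 in the ON libraries, and 0.131 and 0.145 in the OFF libraries. Both ON ratios lay just above both WT ratios, and the OFF ratios spanned those of ON and overlapped WT.

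Ptbp1 (ENSMUSG00000006498; chromosome 10, 79854427 to 79864771), which encodes the polypyrimidine tract-binding protein, was counted at 227 and 233 CPM in the WT libraries, 262 and 221 in the ON libraries, and 251 and 263 in the OFF libraries. ON spanned WT and overlapped OFF, and both OFF values lay above WT. Its log2 fold change was 0.087 ± 0.12 for OFF against ON (edgeR adjusted p = 0.738), 0.073 ± 0.12 for ON against WT (edgeR adjusted p = 0.736) and 0.16 ± 0.12 for OFF against WT (edgeR adjusted p = 0.506). The sign of OFF against ON turned without ON 2 (-0.040), and that of ON against WT turned without ON 1 (-0.032) and with upper quartile scaling (-4.01e-05).

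The PSF, TRAP150 and GSK3 genes form the signal-dependent arm of this control. Sfpq (ENSMUSG00000028820; chromosome 4, 127021324 to 127037013) stood at 412 and 486 CPM in the WT libraries, 425 and 452 in the ON libraries, and 439 and 387 in the OFF libraries. All 3 groups overlapped, and the spread within WT was as wide as any difference between groups. Its log2 fold change was -0.085 ± 0.13 for OFF against ON, -0.035 ± 0.13 for ON against WT and -0.12 ± 0.13 for OFF against WT (edgeR adjusted p = 0.761, 0.887 and 0.659). Without WT 2, Sfpq was on the other side of 0 in both comparisons with WT, at 0.11 for ON and 0.035 for OFF, and without ON 1 it was at 0.031 for ON against WT. Gm12940, a noncoding transcript that shares exon sequence and strand with Sfpq, was lower in OFF (10.95 ± 2.49 CPM, SD, n = 2) than in WT (19.3 ± 2.41), at an edgeR adjusted p = 0.0483. How reads in the shared stretch were assigned is not given in the sources used here.

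Thrap3 (ENSMUSG00000043962; chromosome 4, 126164082 to 126202760) was counted at 322 and 313 CPM in the WT libraries, 343 and 411 in the ON libraries, and 352 and 314 in the OFF libraries. Both ON values lay above both WT values, and OFF overlapped the other groups. The log2 fold change of ON against WT was 0.25 ± 0.13 (edgeR adjusted p = 0.230), with an interval from 0.971-fold to 1.45-fold. OFF against ON gave -0.18 ± 0.13 (edgeR adjusted p = 0.486), and OFF against WT 0.068 ± 0.13 (edgeR adjusted p = 0.823; -0.00696 with upper quartile scaling). Per base of the longest coding transcript, Thrap3 stood at 0.619 and 0.510 of Sfpq in the WT libraries, 0.639 and 0.720 in the ON libraries, and 0.635 and 0.642 in the OFF libraries. WT had the lowest ratios, chiefly in WT 2, and ON and OFF overlapped.

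Gsk3b (ENSMUSG00000022812; chromosome 16, 38089001 to 38246084), which encodes the beta form of the kinase, had the largest differences of the 7. It stood at 113 and 118 CPM in the WT libraries, 101 and 78.1 in the ON libraries, and 135.4 and 135.3 in the OFF libraries. The order was ON, WT, OFF, with no overlap between any of the groups. The log2 fold change of OFF against ON was 0.59 ± 0.14 (1.51-fold; 95% interval 1.22-fold to 1.87-fold), with an unadjusted p of 0.00172 and an edgeR adjusted p = 0.0732, so it was not called. With DESeq2 it was called (adjusted p = 0.0217), and in edgeR fits it was called without ON 1 (log2 fold change 0.80, adjusted p = 0.0129) and was 0.41 (adjusted p = 0.151) without ON 2. Over the 17 alternatives run, the adjusted p of this difference ranged from 0.0129 to 0.231 and its sign did not turn. ON against WT gave -0.36 ± 0.14 (edgeR adjusted p = 0.109; interval 0.627-fold to 0.963-fold) and depended on the ON libraries: it was -0.54 (adjusted p = 0.0209, called) without ON 1 and -0.16 (adjusted p = 0.437) without ON 2. OFF against WT gave 0.23 ± 0.14 (edgeR adjusted p = 0.380; interval 0.946-fold to 1.45-fold). Gsk3a, the gene of the alpha form, did not share the order: it averaged 43.2 CPM in WT and 51.8 in ON, with OFF at 55.2, and was not called in any comparison (edgeR adjusted p from 0.170 to 0.756).

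**Figure D3:**
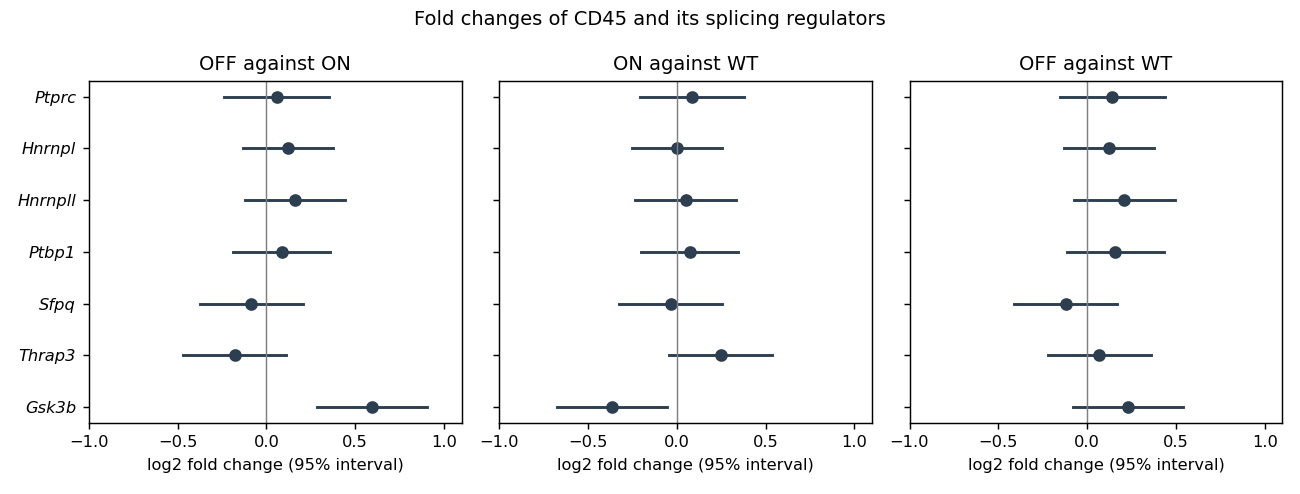
Log2 fold change (points) and 95% interval (lines) of the 7 genes in the 3 comparisons, from edgeR's quasi-likelihood fit. The intervals of Gsk3b leave out 0 for OFF against ON (0.28 to 0.90) and ON against WT (-0.67 to -0.055); every other interval drawn includes 0.

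Groups did not overlap for 3 of the 7 genes between OFF and ON (Hnrnpl, Hnrnpll and Gsk3b, each higher in OFF), where 46.7% of all tested genes did not overlap, 23.4% with OFF higher and 23.3% with OFF lower. Between ON and WT this held for 2 of 7 (Thrap3 higher and Gsk3b lower in ON), against 59.9% of all genes, 29.8% higher and 30% lower. Between OFF and WT it held for 5 of 7 (Ptprc, Hnrnpl, Hnrnpll, Ptbp1 and Gsk3b, each higher in OFF), against 55.7% of all genes, 29.8% with OFF higher and 25.8% with OFF lower. With 2 libraries a group such separation was common over all genes, and none of these differences was called.

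The genes also differed from each other in level. Per kilobase of the longest coding transcript, the WT mean was 333 CPM for Ptprc, 129.5 for Sfpq, 93.3 for Hnrnpl, 72.5 for both Ptbp1 and Thrap3, 13.9 for Gsk3b and 12.2 for Hnrnpll. The place of Ptprc depends on the length used. Over the union of all annotated exons, 18313 bases that include retained introns, it stood at 92.1 CPM per kilobase in WT, beside 94.6 for Sfpq over 4743 bases. Over the coding transcript Gsk3b and Hnrnpll changed places between groups: ON had 10.8 CPM per kilobase of Gsk3b and 12.6 of Hnrnpll, and OFF had 16.3 and 14.1. Ptbp1 and Thrap3 could not be ordered in WT, and in ON they stood at 76.2 and 86.1. Over the union of exons Hnrnpll was lowest in all 3 groups, with 3.25 CPM per kilobase in WT beside 11.7 for Gsk3b.

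Genes that act with CD45 at the membrane did differ. Of 15 partners and substrates, 8 rose and 1 fell in ON against WT, or 60.0% beside 14.8% of all genes (9.68% higher and 5.16% lower). Ptprcap, which encodes a protein bound to CD45 in lymphocytes, averaged 166 CPM in WT, 331 CPM in ON and 246 CPM in OFF. It rose 1.995-fold in ON against WT (edgeR adjusted p = 0.00212), a call kept in all 16 alternatives. Lgals1, the gene of galectin-1, a lectin that binds CD45 glycans, rose 5.24-fold (edgeR adjusted p = 0.0178), and Fyn, a Src family kinase, rose 1.42-fold (edgeR adjusted p = 0.0156). Pag1, an adaptor that brings the inhibitory kinase Csk to the membrane, fell 1.56-fold (edgeR adjusted p = 0.0149), from 173 CPM in WT to 111 in ON, with OFF at 161. Lck, the best known substrate, averaged 402 CPM in WT and 544 in ON, with OFF at 487, and was not called (edgeR adjusted p = 0.0571 for ON against WT). The count of 9 dropped to 5 of 15 with a replicate block, where 9.13% of all genes were called. It also dropped without WT 1, WT 2 or ON 2. Those fits leave 1 library in a group, and a smaller share of all genes was called in them too. The calls of Lgals1 were lost without WT 1, WT 2, ON 1 or ON 2, and those of Fyn and Pag1 without WT 1 or WT 2. The call of Lgals1 was also lost with no filter on low counts, and that of Fyn with the replicate block. Markers of regulatory T, B and myeloid cells were also higher in ON and OFF than in WT (5 regulatory T cell markers summed to at most 44.9 CPM in WT and at least 307 in ON), and their part in the difference was not tested.

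Between OFF and WT 4 of these 15 genes rose (26.7% beside 6.83% of all genes): Ptprcap (1.49-fold), Lgals1 (4.80-fold), Jak3, a cytokine receptor kinase (1.81-fold), and Skap2, an adaptor (1.80-fold). Their edgeR adjusted p-values were 0.0363, 0.0347, 0.0350 and 0.0484, and each was lost in 6 or more of 16 alternatives, including the fit without OFF 2. The count was 0 with a replicate block and 1 when the filter was a mean CPM of 1, where 4.20% and 5.64% of all genes were called. It was 2 with RLE or upper quartile scaling, where 6.40% and 6.36% of all genes were called. The count also fell without WT 1, WT 2, ON 2, OFF 1 or OFF 2, each of which leaves 1 library in a group. Between OFF and ON edgeR and limma-voom called 0 of these 15 genes and DESeq2 1, and 4 had an unadjusted edgeR p under 0.05.

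In the list of 17 genes around GSK3 signalling, 2 rose and 4 fell in ON against WT, or 35.3% beside 14.8% of all genes (9.68% higher and 5.16% lower). The 2 higher calls were not kept under another scaling, with 0 higher and 4 lower by RLE and 0 higher and 5 lower by upper quartile factors, and limma-voom gave 0 higher and 3 lower. The regulatory T, B and myeloid cell markers differed between the same groups, and their part here was not tested. Pik3r1, a regulatory subunit of PI3 kinase, went from 248 CPM in WT to 164 in ON (1.52-fold lower, edgeR adjusted p = 0.00854), and was at 221 in OFF. Ctnnb1, the gene of beta-catenin, a GSK3 substrate, fell 1.37-fold (edgeR adjusted p = 0.0262), and Inpp5d, a lipid phosphatase gene, rose 1.30-fold (edgeR adjusted p = 0.0490, lost in 14 of 16 alternatives). Pik3r1 and Ctnnb1 had their lowest mean in ON, as did Gsk3b. With no filter on low counts or with a replicate block 2 of the 17 were called, where the shares of all genes were 4.28% and 9.13%. The calls were lost without WT 1 or WT 2, and some without ON 2. Those fits leave 1 library in a group, and a smaller share of all genes was called in them too. The call of Ctnnb1 was also lost without ON 1 or ON 2, with the replicate block and with no filter on low counts. Neither OFF against ON nor OFF against WT had a called gene of this list by edgeR's main fit or limma-voom, while DESeq2 called 1 and 0. The legacy quasi-likelihood method called 0 and 1, and so did the edgeR fit of only the 4 libraries compared. For OFF against WT these fits called 7.08% and 9.89% of all genes. At an unadjusted p under 0.05 edgeR's main fit had 5 for OFF against ON and 4 for OFF against WT. Without ON 1 edgeR called 1 and 3, and without ON 2 it called 0 and 3.

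**Figure D4:**
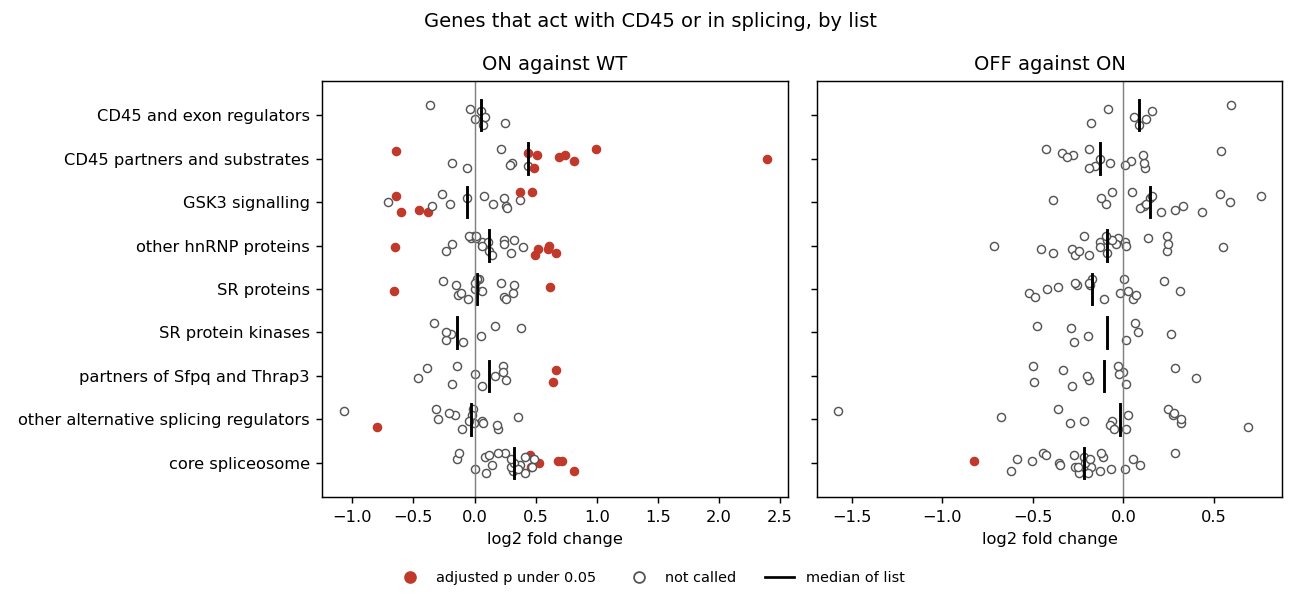
Log2 fold change of each gene (circles) for CD45 and its exon regulators and for 8 further lists, in ON against WT (left) and OFF against ON (right); red circles have an edgeR adjusted p under 0.05 and black lines are list medians. The top row, with 7 genes, holds no red circle in either comparison, and CD45 partners and substrates hold 9 for ON against WT.

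Across 6 lists of other splicing genes, 17 of 101 genes were called in ON against WT, or 16.8%, close to the 14.8% of all genes. Of these 14 rose and 3 fell (11 and 3 with upper quartile scaling), with a median log2 fold change of 0.091 over the 101. Among 23 other hnRNP genes 5 rose and 1 fell: Hnrnpd went from 161 to 256 CPM (1.58-fold, edgeR adjusted p = 0.00536), Hnrnpa1 rose 1.44-fold and Hnrnpa3 1.41-fold, and Hnrnpu, a nuclear scaffold protein gene, fell 1.57-fold. Of 12 partners of Sfpq and Thrap3 2 rose, Nono (1.59-fold), whose product pairs with PSF, and Snw1 (1.56-fold), a spliceosome factor. Nono averaged 249 CPM in WT and 395 in ON, with OFF at 313, while Sfpq itself had means of 449, 438 and 413. Of 17 SR protein genes, which mostly favour exon inclusion, Srsf4 rose 1.53-fold and Tra2a fell 1.58-fold. Of 25 core spliceosome genes 6 rose, including Snrpf (1.64-fold), Snrpd1 (1.76-fold), Sf3b2 (1.61-fold) and Eftud2 (1.38-fold). Of 16 other regulators of alternative splicing Mbnl3 fell 1.74-fold. Of 8 SR protein kinase genes edgeR, DESeq2 and limma-voom called 0, with 1 at an unadjusted p under 0.05; the group means of Clk1 were 358 (WT), 284 (ON) and 297 (OFF) CPM, and those of Srpk1 308, 262 and 264.

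These calls were lost without WT 1 or WT 2. Those fits leave 1 WT library, and fewer of all genes were called in them too. With a replicate block 10 of the 101 genes were called in ON against WT (9.90%, beside 9.13% of all genes in that fit). The part of the same cell markers in these calls was not tested. The calls of Eftud2, Hnrnpa1 and Hnrnpa3 were lost with that block. The call of Eftud2 was also lost without ON 1, that of Tra2a without ON 2, and that of Mbnl3 without ON 2 or with no filter on low counts. Between OFF and ON 1 of 101 was called (0.990% beside 1.03% of all genes), Snrpf, which was 1.77-fold lower in OFF (edgeR adjusted p = 0.0246). That call did not hold when any single WT or OFF library was left out, nor with a replicate block. Without ON 1 the count was 16 of 101 (15.8%, beside 3.55% of all genes in that fit), and DESeq2 called 8 (7.92%, beside 3.15%). Between OFF and WT edgeR, DESeq2 and limma-voom called 0 of 101, with 8 at an unadjusted p under 0.05 by edgeR, and edgeR called 1 without ON 1, without OFF 1 or in a fit of those 4 libraries alone.

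Markers of T cells were present and markers of other cells moved with genotype and gate. Cd4, the defining gene of the sort, stood between 604 and 702 CPM in all 6 libraries. The summed level of 5 regulatory T cell markers was 35.5 to 44.9 CPM in WT, 307 to 436 in ON and 286 to 507 in OFF, and 5 of 5 were called higher in ON and in OFF than in WT; Foxp3 had means of 2.56, 34.4 and 57.7 CPM. For 8 B cell markers the sums were 30.2 to 37.7, 201 to 234 and 200.4 to 252 CPM, with Cd74 at 26.1, 189 and 189.9, and 5 of 8 were called higher in ON and 7 in OFF than in WT. For 6 CD8 T and NK cell markers the sums were 18.8 to 26.4, 66.6 to 89.1 and 34.6 to 61.8 CPM. Nkg7, the most abundant of the 6 in ON and OFF, averaged 1.63, 53.1 and 24.3, and Cd8a 0.849, 5.79 and 3.57. Klrd1 was instead highest in WT (means of 5.51, 2.12 and 3.67), and Cd8b1 differed little (13.3, 15.2 and 12.5). Against WT, 4 of the 6 had a log2 fold change above 0 and 2 below, for ON and for OFF alike. Only 2 of the 6 were called, both higher, for each of these groups. For 10 myeloid markers the sums were 19.8 to 20.5, 53.6 to 59.3 and 46.4 to 62.9 CPM, with Lyz2 at 6.86, 13.4 and 21.0. Of 6 erythroid and platelet markers the sum was at most 1.98 CPM, with Hba-a1 at 0 counts in 4 libraries, which allows up to 3 counts in each. Col1a1, a stromal marker, was at most 1.96 CPM, and Pecam1 made up most of the stromal sum of 160.4 to 234 CPM. Between OFF and ON the summed ranges overlapped for regulatory T cell, B cell and myeloid markers, and the CD8 T and NK cell sums were lower in both OFF libraries. Itgb1 and Cd44, which are higher in memory cells, had means of 244.9 and 79.7 CPM in OFF and 60.7 and 40.0 in WT. All leukocytes express Ptprc, and the part of these cells in the values above was not tested.

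The protein-coding genes whose log2 CPM most resembled that of Ptprc over the 6 libraries, among 8878 with a mean of at least 5 CPM, were Hint1 (Pearson r = 0.986), Tomm22 (0.984), Cdca4 (0.984), Lsm12 (0.983) and Ptger4 (0.980). They were ranked over 6 points that share 3 groups and their library depths, so this is a description only. Like Ptprc, they had their lowest mean in WT and their highest in OFF, with 38.3 (WT), 44.7 (ON) and 47.8 (OFF) CPM for Hint1.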

How the data were processed

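Total RNA of the sorted spleen cells was sequenced on an Illumina NovaSeq and aligned to GRCm38, per the labels' protocols. Of software, the submitters' processing notes list R 3.6.2 together with edgeR. No source used here names an aligner, a counting program and its strand setting, or an annotation release. The authors deposited raw counts per Ensembl gene, without normalization. The 5 rows that name no gene (such as reads not aligned) held 53.1% to 66.3% of each library's reads and stayed out of library sizes and tests. GENCODE M21 named 47310 of the 47729 identifiers. Without a known strand setting, reads of overlapping antisense genes cannot be told apart; those that share exons with Hnrnpl and Ptbp1 averaged at most 105 counts.

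The filter was edgeR's filterByExpr (a minimum count of 10 and a total of 15), which kept 15780 genes. Counts were tested with edgeR 4.0.16 in R 4.3.3 (quasi-likelihood, robust, TMM, no block), 6 libraries in 1 fit with 3 residual degrees of freedom, and called at a Benjamini-Hochberg adjusted p under 0.05. Alternatives were RLE and upper quartile scaling, other filters, DESeq2 1.42.0, limma-voom (limma 3.58.1), the legacy quasi-likelihood method, fewer libraries or genes, a replicate block, and each library left out. Samples of a group differed by more than sampling noise (chi-square per degree of freedom 9.50 in WT, 65.9 in ON and 17.8 in OFF).

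The named genes are the 7 members, up to 4 called genes per list and comparison by p (the 2 most abundant where none was called), the 5 genes most like Ptprc, and the defining and some of the most abundant genes of the marker lists. Rbpj, A130071D04Rik, Gm12940, Gsk3a, Lck, Cd44, Itgb1, Il7r and Ccl5 were added after their values were seen. Some genes that the rule names are not reported here. The members and lists were chosen with earlier results of these data known.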

Additional observations from a re-analysis of the deposited data

How the results depend on the processing

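Values are log2 fold changes unless named otherwise. The 7 genes in 3 comparisons give 21 differences, each recomputed in 17 alternatives. Of these 357 values, 334 kept their sign and stayed uncalled, 18 turned sign without being called, and 5 became called, all for Gsk3b. The count of called genes stayed at 0 of 7 in each comparison except that it was 1 for OFF against ON with DESeq2 and from 0 to 1 over the fits that left out a library, and from 0 to 1 over those fits for ON against WT; for OFF against WT it was 0 in every alternative. In each case the gene was Gsk3b. Replicate numbers are not said to mark a shared animal or batch. The deviations of same-numbered samples from their group means correlated at -0.20 (OFF and ON), 0.077 (ON and WT) and -0.21 (OFF and WT). With 1 such deviation per group and gene, these correlations cannot show whether samples were paired. With the replicate block 0 of 7 genes were called in each comparison; with the numbers of the OFF libraries exchanged, an alternative added after seeing the data, 1, 1 and 0 were called.

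For ON against WT, Hnrnpl was at -0.00588 with RLE and with DESeq2, -0.071 with upper quartile scaling, -0.020 with a mean CPM of at least 1, -0.000485 with limma-voom and -0.029 with protein-coding genes alone; upper quartile scaling gave -0.023 for Hnrnpll and -4.01e-05 for Ptbp1, and no filter gave 0.014 for Sfpq. For OFF against WT Thrap3 was at -0.00696 with upper quartile scaling. For OFF against ON Srpk1 was at -0.000536 with RLE, -0.000537 with DESeq2, -0.020 with a mean CPM of at least 1, -0.00276 with the 4 libraries compared and -0.00233 with protein-coding genes alone. Leaving out a library gave ranges, for OFF against ON, of -0.071 to 0.17 (Ptprc), -0.040 to 0.22 (Ptbp1), -0.18 to 0.26 (Clk1) and -0.10 to 0.13 (Srpk1). For ON against WT they were -0.055 to 0.10 (Hnrnpl), -0.032 to 0.21 (Ptbp1) and -0.14 to 0.11 (Sfpq), and for OFF against WT -0.22 to 0.035 (Sfpq).

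Of 26 called differences of the list genes chosen by the naming rule, 1 was kept in all 16 alternatives and 25 were lost without at least 1 of the WT libraries. Over all genes the called share ranged over the alternatives from 0.323% to 7.67% for OFF against ON, 2.08% to 23.8% for ON against WT and 1.27% to 13.2% for OFF against WT. For ON against WT 65.2% of called genes were higher, and 53.8% with upper quartile scaling. The causes were not tested. With 2 libraries a group, the printed intervals, not depth, bound the size of a difference that could have been missed.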
